A study of Mus musculus with 12 samples.

Results

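The genes described here are 36 genes of sterol and fatty acid synthesis, with the proteins that sense, store and export sterols, measured in splenic regulatory T cells (Treg) that lack or carry CD83. They were chosen by name: every probe, control probes left out, whose gene name in the scanner files was 1 of the 36. To be tested, a probe had to pass the scanner's background test (well above background) in each of the 3 arrays of 1 group or more. Sc4mol is the older name of Msmo1, a sterol methyl oxidase. All 36 genes had a tested probe, out of 18560 gene names with a tested probe in all. The array held 53 probes for them, and 51 passed. The 2 that did not, a second probe each for Hmgcs1 and Fdft1, lay above background on 0 of 12 arrays. Just inside the threshold lay the dimmest Hsd17b7 probe, above background on 7 arrays, among them all 3 of WT at 3 h. Each gene is counted by its brightest tested probe, which lay well above background on all 12 arrays for all 36 genes.

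Cells make cholesterol from acetyl-CoA through the mevalonate pathway, which ends in farnesyl diphosphate, and then through squalene and a run of ring-modifying sterol steps. The SREBP transcription factors switch these genes on: SREBP2, encoded by Srebf2, acts mainly on sterol genes, and SREBP1, encoded by Srebf1, mainly on fatty acid genes. Scap escorts SREBP out of the endoplasmic reticulum, Insig1 and Insig2 hold it back when sterols are plentiful, and Insig1 is itself an SREBP target. Liver X receptors (LXR) sense oxysterols and switch on export genes such as Abca1. T cells that are activated through their antigen receptor need new membrane, and the mevalonate pathway is known to support Treg function.

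RNA came from sorted splenic Treg of female C57BL/6 mice and was labelled with a single dye, Cy3. The 12 arrays fall into 4 groups of 3. These are conditional Cd83 knockout (KO) cells after 3 h of stimulation with antibodies to CD3 and CD28, KO cells without stimulation (0 h), wild-type (WT) cells after 3 h, and WT cells at 0 h. The labels name the knockout CD83cKO and give no Cre driver. KO replicates 1 and 2 at each time came from mice of 10 weeks and KO replicate 3 at each time from a mouse or mice of 21 weeks, while all WT arrays came from mice of 9 weeks. The series counts 6 mice for its 12 arrays, and the labels tie no array to a mouse. P-values therefore measure the spread between arrays as if they were independent. All 6 KO arrays lay on 1 slide, WT at 3 h on another and WT at 0 h on another. Genotype and slide, and in WT time and slide, cannot be told apart. The KO comparison of 3 h with 0 h lies within 1 slide.

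Levels are log2 signals minus the array's own 75th percentile, so a level of 0 is that percentile, and no level of 1 gene is set against that of another. The signal at that percentile of the 19799 probes above background on every array ran from 1543 to 3108 units in KO and from 2337 to 2955 in WT, with the lowest on the 21-week arrays. Cd83 had 1.06, 1.07 and 1.92 in KO at 3 h, against 4.21, 3.69 and 3.65 in WT at 3 h. It had 0.75, 0.29 and 0.23 in KO at 0 h, against 2.36, 2.17 and 2.39 in WT at 0 h. The KO arrays lay below all WT arrays of the same time; the labels do not say which exon was deleted. Of the Treg markers, Il2ra, Ikzf2, Ctla4 and Tnfrsf18 lay above background on all 12 arrays. These 4 were nevertheless lower on each 21-week array than on either 10-week KO array of that time, while Foxp3 was higher. Il2ra had -2.30 on the 21-week array at 0 h, against 2.26 and 1.71 on the 10-week KO arrays. Ikzf2 had -3.03 on the 21-week array at 3 h, against 1.24 and 0.94. The single tested Foxp3 probe lay above background on all 6 KO arrays and on 0 of 6 WT arrays, so the defining Treg transcript was not detected by that probe in WT. It had -5.84, -4.09 and -3.16 in KO at 3 h, against -9.62, -9.26 and -9.51 in WT at 3 h, and was at least 8.92-fold higher in KO there; the cause was not tested.

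Both arrays of 21-week KO mice differed from the other KO arrays in cell type markers. All 9 tested T cell markers were lower on each of them than on both 10-week KO arrays of the same time. The mean over these markers, minus its average in WT at 0 h, was -2.58 (log2) on the 21-week array at 3 h and -1.77 on that at 0 h, against -0.55 to -0.28 on the 10-week KO arrays. The mean of 5 plasma cell markers was 5.02 and 4.52 on the 21-week arrays, against 0.57 to 1.69 on the 10-week KO arrays. The mean of the 2 tested neutrophil markers, Mpo and Elane, was 5.11 and 5.96 on them, against -0.90 to 1.66. The other neutrophil markers of the list, S100a8, S100a9 and Ly6g, were on the array but had no tested probe. The mean of 5 B cell markers was 2.00 and 2.25 on the 21-week arrays, against -0.51 to 1.93 on the 10-week KO arrays. On average, markers of several other cell types lay higher in KO than in WT. Of 12 macrophage and monocyte markers, 10 rose in KO against WT at 3 h and 11 at 0 h (limma), where 1.1% and 1.63% of all probes rose. Without the 21-week arrays 9 and 12 rose, where 1.13% and 3.87% of all probes did. The mean of these 12 markers ran from 0.18 to 0.99 in KO at 3 h against -2.12 to -1.60 in WT at 3 h. At 0 h it ran from 2.03 to 2.50 in KO against -0.44 to 0.43 in WT. The mean of 4 dendritic cell markers ran from 0.96 to 2.10 in KO at 3 h against 0.13 to 0.29 in WT at 3 h, and from 1.32 to 2.41 in KO at 0 h against -0.34 to 0.27 in WT at 0 h. Of these 4, only Itgax was called between genotypes, at both times (limma). Siglech overlapped between genotypes at both times. Zbtb46 had a lower mean in KO at 3 h, -4.67 against -4.16 in WT at 3 h. The mean of 5 erythroid markers ran from 2.57 to 3.43 in KO at 0 h against -1.27 to 1.15 in WT at 0 h, while the groups overlapped at 3 h. The part of these cells in the values below was not tested, and in bulk RNA fewer cells of a type cannot be told apart from less RNA per cell. Counts of called members are given with all 12 arrays and again without both 21-week arrays, which leaves 2 arrays in each KO group. The third value listed for a KO group is always the 21-week array.

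**Figure D1:**
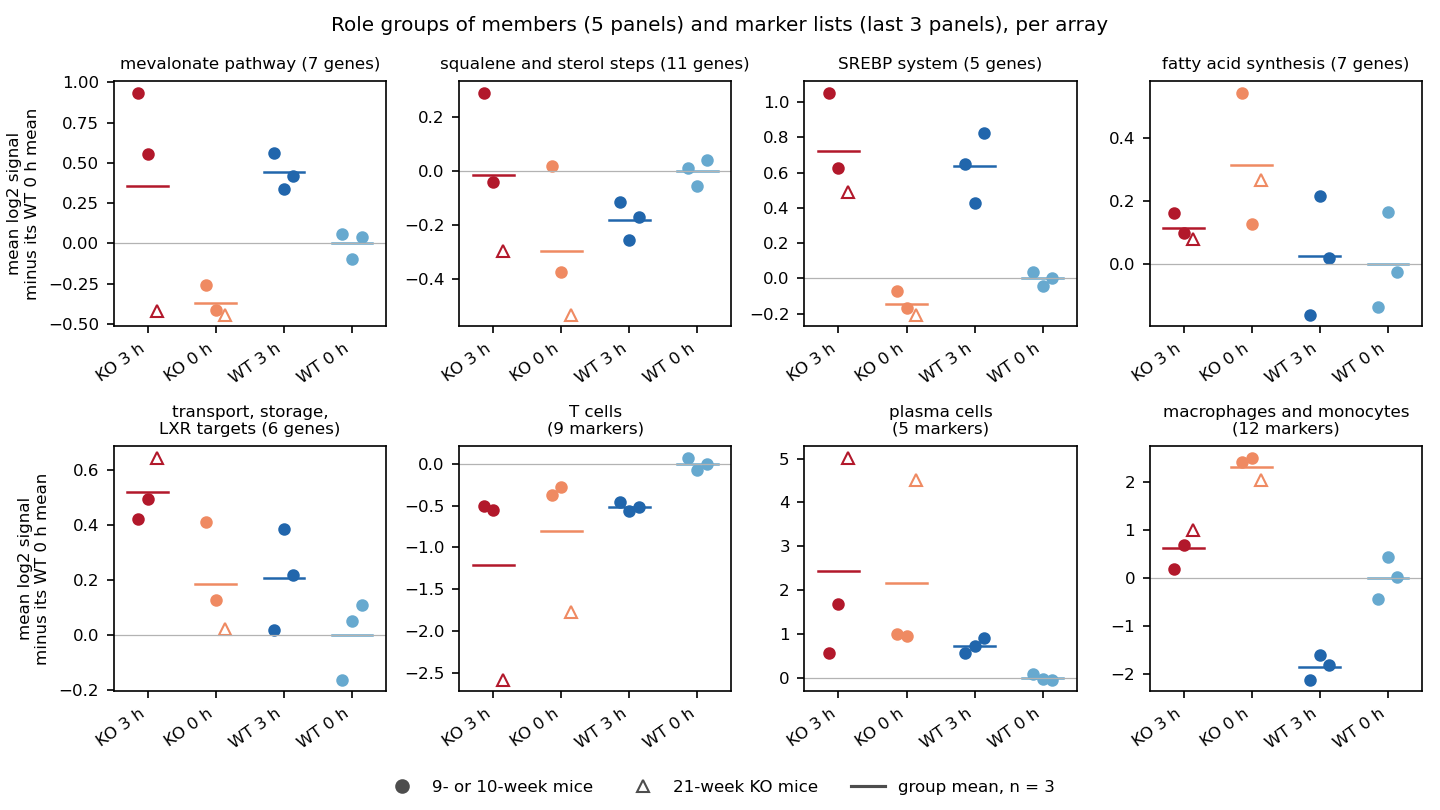
Mean log2 signal of each role group of members (first 5 panels) and of 3 marker lists (last 3 panels) on each array, minus the WT mean at 0 h, with KO left of WT and 3 h left of 0 h. Triangles are the 21-week KO arrays; in the mevalonate panel the 21-week KO array at 3 h lies at -0.42, the other KO arrays at 3 h at 0.94 and 0.55.

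RefSeq promoter windows, each of 300 bases around the transcription start on GRCm38.p6, were given for 28 of the 36 genes. They were searched on both strands for TCACNCCAC, a sterol regulatory element that SREBP binds, for ATTGG, the core that NF-Y binds beside SREBP at sterol genes (overlapping copies counted apart), for CACGTG, the E-box, and for GGGCGG, the GC box. ATTGG was found in 23 of the 28 genes, against 41.1% of all 27025 genes with a window. Among the 9 squalene and sterol step genes with a window all 9 held it, as did 5 of 6 mevalonate genes and 3 of 5 fatty acid genes. TCACNCCAC was found in 1 of the 28, Hmgcs1, against 1.44% of all genes, and CACGTG in 6 of the 28, against 8.09%. GGGCGG was found in 24 of the 28, against 38.2% of all genes, and in all 9 squalene and sterol step genes with a window. A share above that of all genes was thus not limited to ATTGG. These letters are a description of the windows and not of any binding. The windows of 3 genes that rose with activation in at least 1 genotype (Hmgcs1, Mvk and Insig1) and of 2 that fell (Tm7sf2 and Dhcr7) are shown so that the elements can be compared between risers and fallers. Capitals mark TCACNCCAC and ATTGG, and CCAAT where ATTGG lies on the other strand. Each window is written in the direction of transcription.
Hmgcs1: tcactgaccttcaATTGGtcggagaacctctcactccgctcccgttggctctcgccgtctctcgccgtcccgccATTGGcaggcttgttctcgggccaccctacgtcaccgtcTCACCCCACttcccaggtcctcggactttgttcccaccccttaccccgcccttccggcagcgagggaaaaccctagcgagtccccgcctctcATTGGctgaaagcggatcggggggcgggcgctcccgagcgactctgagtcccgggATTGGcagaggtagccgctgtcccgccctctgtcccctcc
Mvk: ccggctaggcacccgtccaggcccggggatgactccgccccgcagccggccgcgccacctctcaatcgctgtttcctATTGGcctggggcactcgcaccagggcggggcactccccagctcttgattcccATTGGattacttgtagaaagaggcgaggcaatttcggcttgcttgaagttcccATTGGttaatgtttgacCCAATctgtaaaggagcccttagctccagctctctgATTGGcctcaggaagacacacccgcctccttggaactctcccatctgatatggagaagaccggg
Insig1: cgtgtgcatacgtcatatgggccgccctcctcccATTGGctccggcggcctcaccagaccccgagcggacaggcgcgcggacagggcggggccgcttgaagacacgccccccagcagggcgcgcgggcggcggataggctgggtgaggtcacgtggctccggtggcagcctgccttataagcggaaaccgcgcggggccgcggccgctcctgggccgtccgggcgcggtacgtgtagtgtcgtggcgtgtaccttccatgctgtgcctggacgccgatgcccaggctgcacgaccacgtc
Tm7sf2: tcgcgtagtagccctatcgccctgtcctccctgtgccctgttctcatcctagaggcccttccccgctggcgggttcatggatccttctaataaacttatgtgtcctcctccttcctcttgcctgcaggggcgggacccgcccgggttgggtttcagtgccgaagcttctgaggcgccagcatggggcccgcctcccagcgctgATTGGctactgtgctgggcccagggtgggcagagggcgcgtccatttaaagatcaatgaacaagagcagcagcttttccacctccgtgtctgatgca
Dhcr7: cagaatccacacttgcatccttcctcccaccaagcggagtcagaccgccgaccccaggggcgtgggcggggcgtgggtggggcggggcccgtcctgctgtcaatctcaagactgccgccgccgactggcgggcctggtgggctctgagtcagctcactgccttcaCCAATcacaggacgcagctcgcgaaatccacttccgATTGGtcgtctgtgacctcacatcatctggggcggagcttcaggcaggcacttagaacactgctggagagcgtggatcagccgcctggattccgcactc
These windows lie at chr13:119690101-119690400 (Hmgcs1, plus strand), chr5:114444019-114444318 (Mvk, plus strand), chr5:28071162-28071461 (Insig1, plus strand), chr19:6067801-6068100 (Tm7sf2, minus strand) and chr7:143829964-143830263 (Dhcr7, plus strand) of GRCm38.p6. Hmgcs1 held the TCACNCCAC match at position -137 from its start and 4 copies of ATTGG. Mvk, which rose, held 5 copies of ATTGG and Insig1, which rose, held 1. Tm7sf2, which fell, also held 1, and Dhcr7, which fell, held 2 in the window shown and 0 in its other 2 windows. Copies of ATTGG were present in windows of genes that moved in either direction.

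What 3 h of stimulation did to these genes was asked in each genotype. In KO, 7 of the 36 rose and 1 fell (limma adjusted p under 0.05), where 7.44% of all 26261 probes rose and 8.87% fell. The risers were Insig1 and both SREBP genes together with Hmgcs1, Fdps, Fdft1 and Sc4mol, and the faller was Tm7sf2. In WT, 2 rose (Mvk and Insig1) and 5 fell (Mvd, Lss, Tm7sf2, Nsdhl and Dhcr7), where 13.7% of all probes rose and 15.6% fell. The median difference of the 36 genes was 0.23 in KO, against -0.02 over all probes, and 0.16 in WT, against -0.10 over all probes. The arrays at 3 h and 0 h did not overlap for 12 of the 36 in KO (24.3% of all probes) and 24 in WT (67.7%). In WT a lack of overlap was thus common among all probes. Without the 21-week arrays 17 rose and 5 fell in KO, where 20.2% of all probes rose and 24.2% fell. In that fit 10 rose and 8 fell in WT, where 24.9% rose and 29.7% fell; the WT differences themselves are the same, and only the estimate of the spread changed.

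The KO calls rest on the spread that all 12 arrays share. A fit of the 6 KO arrays alone called 0 of the 36 (147 of all probes), while a fit of the 6 WT arrays alone called 18. With KO replicate 2 at 0 h left out 1 call was made in KO, with KO replicate 1 at 3 h left out 2, with KO replicate 2 at 3 h left out 4, and with KO replicate 3 at 3 h left out 19. In WT the count was 4 without WT replicate 2 at 3 h or without WT replicate 3 at 0 h, and 15 without KO replicate 3 at 3 h. The authors' deposited log2 table gave 6 rises and 2 falls in KO. Apart from the fit of the KO arrays alone, the count over all probes is not given for these fits. The counts show how far the calls depend on the fit and are not set against a share of all probes.

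**Figure D2:**
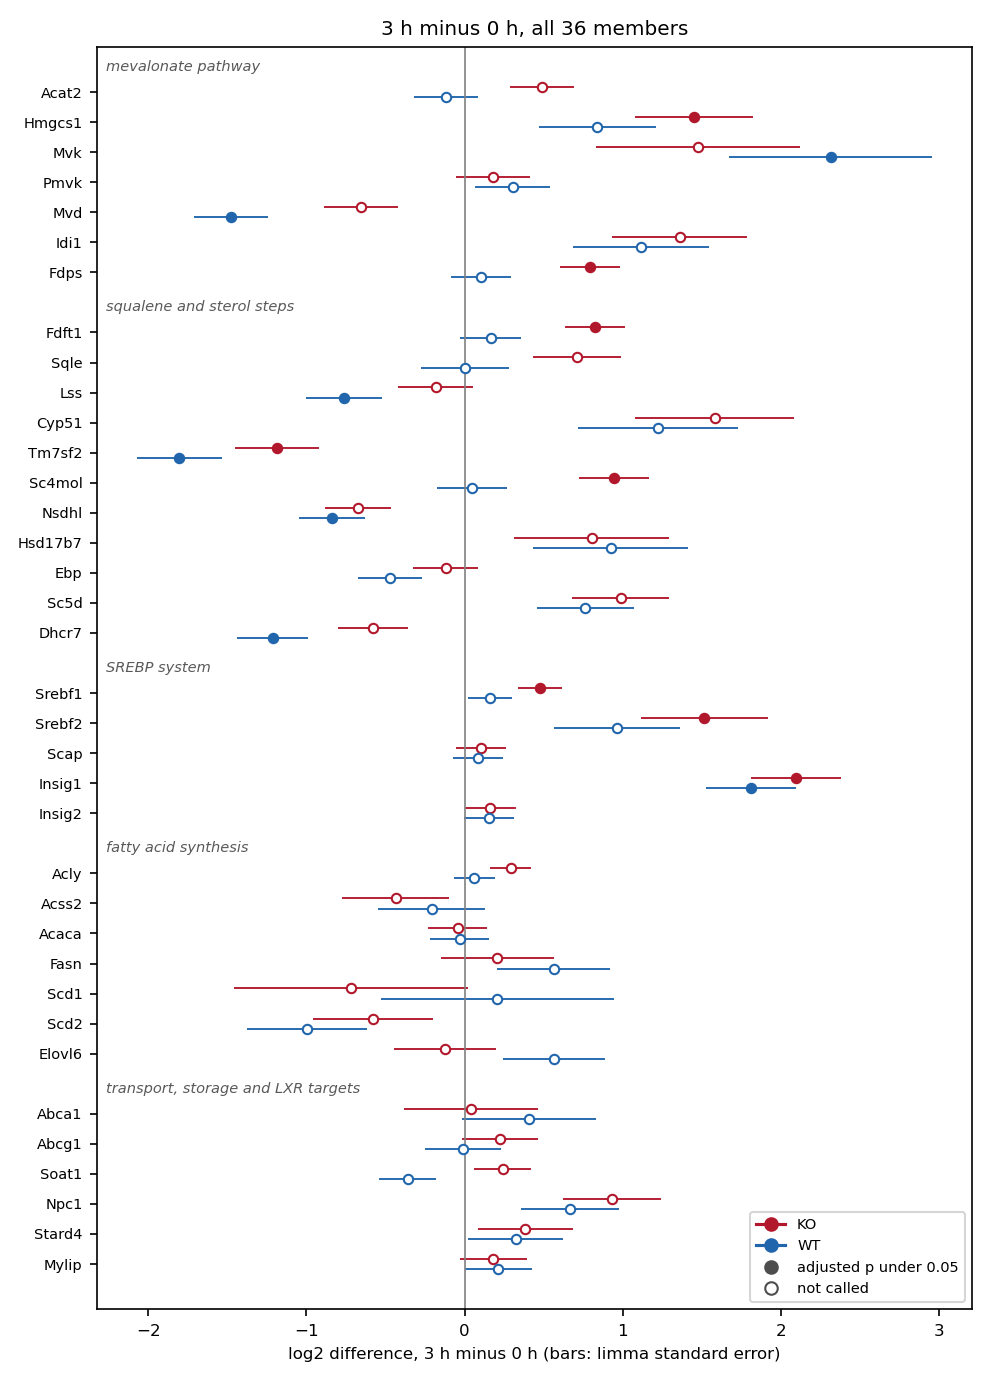
Log2 difference of 3 h minus 0 h for each of the 36 genes, grouped by role, in KO (red, upper) and WT (blue, lower), with the limma standard error; filled points are called at an adjusted p under 0.05. Insig1 lies at 2.09 in KO and 1.81 in WT, and Tm7sf2 at -1.19 in KO and -1.80 in WT.

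In the SREBP system, 3 of 5 genes rose in KO (7.44% of all probes) and 1 of 5 in WT (13.7% of all probes). The counts were the same without the 21-week arrays, where 20.2% of all probes rose in KO and 24.9% in WT. Insig1, the sterol-sensing anchor of SREBP, had -0.95, -1.46 and -2.19 in KO at 3 h, against -3.78, -3.62 and -3.47 in KO at 0 h. The WT arrays had -1.39, -1.94 and -1.53 at 3 h, against -3.36, -3.59 and -3.35 at 0 h. All arrays at 3 h lay above all arrays at 0 h. It rose 4.27-fold in KO (log2 difference 2.09 ± 0.285 SE, adjusted p = 0.00190) and 3.51-fold in WT (1.81 ± 0.285, adjusted p = 0.00164; limma, 3 arrays per group). The Insig1 probe lies at chr5:28404246-28404305 (mm9). The KO rise was not called when only the KO arrays were fitted (adjusted p = 0.0739), and the WT rise was called under all 23 alternatives.

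Srebf2 had -0.40, -1.44 and -1.78 in KO at 3 h, against -2.39, -2.76 and -3.01 in KO at 0 h. WT cells had -1.30, -1.95 and -0.58 at 3 h, against -2.07, -2.37 and -2.30 at 0 h. The groups did not overlap in either genotype. It rose 2.86-fold in KO (log2 1.52 ± 0.401, adjusted p = 0.0300, limma), while the difference in WT was 0.96 ± 0.401 and not called (adjusted p = 0.0971). A second Srebf2 probe gave 1.01 in KO (adjusted p = 0.134) and 1.02 in WT (adjusted p = 0.0984), and the KO call was lost under 7 of 23 alternatives, among them leaving out KO replicate 1 or 2 at 3 h or KO replicate 2 or 3 at 0 h.

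Srebf1 had -3.77, -4.07 and -3.99 in KO at 3 h, against -4.49, -4.46 and -4.31 in KO at 0 h. The groups did not overlap, and the rise was 1.39-fold (log2 0.48 ± 0.141, adjusted p = 0.0445, limma); it was lost under 16 of 23 alternatives, among them leaving out any 1 array of WT or of 10-week KO mice. In WT the difference was 0.16 ± 0.141. Scap, the SREBP escort, had 1.16, 0.88 and 0.75 in KO at 3 h, against 0.98, 0.85 and 0.64 in KO at 0 h. Insig2, the second anchor, had -1.66, -1.68 and -1.22 in KO at 3 h, against -1.55, -1.72 and -1.77 in KO at 0 h. The KO groups overlapped for both genes, and in WT the differences were 0.09 for Scap and 0.15 for Insig2, not called.

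In the mevalonate pathway, with all arrays, 2 of 7 genes rose in KO and none fell (7.44% and 8.87% of all probes), while in WT 1 rose and 1 fell (13.7% and 15.6%). With the 21-week arrays left out, 6 rose and 1 fell in KO and 3 rose and 1 fell in WT, where 20.2% of all probes rose and 24.2% fell in KO, and 24.9% rose and 29.7% fell in WT. Hmgcs1, which makes the HMG-CoA that feeds the pathway, had 1.80, 1.27 and 0.01 in KO at 3 h, against -0.21, -0.46 and -0.60 in KO at 0 h. Its WT levels were 1.25, 0.91 and 0.86 at 3 h, against 0.25, 0.04 and 0.21 at 0 h. The groups did not overlap in either genotype. It rose 2.74-fold in KO (log2 1.45 ± 0.372, adjusted p = 0.0266, limma), and the WT difference was 0.84 ± 0.372 (adjusted p = 0.117), called without the 21-week arrays (adjusted p = 0.00386). The KO call was lost with KO replicate 1 or 2 at 3 h, or KO replicate 2 or 3 at 0 h, left out. Its probe lies on the unplaced segment chr13_random of mm9.

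Mvk, mevalonate kinase, had 2.11, 2.19 and -0.84 in KO at 3 h, against -0.16, -0.32 and -0.49 in KO at 0 h. In WT it had 2.61, 2.51 and 2.65 at 3 h, against 0.42, 0.16 and 0.25 at 0 h. The 10-week KO arrays at 3 h lay far above the KO arrays at 0 h, and the 21-week one lay below all of them. It rose 4.98-fold in WT (log2 2.31 ± 0.642, adjusted p = 0.0223, limma). In KO the difference was 1.48 ± 0.642 with all arrays (adjusted p = 0.144) and 2.39 without the 21-week arrays (adjusted p = 1.46e-05). The second Mvk probe gave 2.51 in WT (adjusted p = 0.0138) and 1.64 in KO (adjusted p = 0.0998). The brightest probe lies at chr5:114910540-114910599 (mm9). Leaving out any 1 of the 6 WT arrays ended the WT call (adjusted p up to 0.0663).

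Mvd, the mevalonate diphosphate decarboxylase, moved the other way. It had -1.91, -2.63 and -2.56 in KO at 3 h, against -1.39, -1.61 and -2.11 in KO at 0 h. The WT arrays had -2.52, -2.72 and -2.71 at 3 h, against -1.21, -1.15 and -1.16 at 0 h. The groups overlapped in KO and not in WT, where Mvd fell to 0.359 of its 0 h signal (log2 -1.48 ± 0.234, adjusted p = 0.00173, limma; called under all 23 alternatives). In KO the difference was -0.66 ± 0.234 (adjusted p = 0.0826), and -0.76 without the 21-week arrays (adjusted p = 0.0226).

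Fdps, the farnesyl diphosphate synthase, had 1.12, 0.67 and 0.60 in KO at 3 h, against -0.07, -0.17 and 0.26 in KO at 0 h. It rose 1.73-fold in KO (log2 0.79 ± 0.189, adjusted p = 0.0196, limma), with no overlap. In WT the difference was 0.11 ± 0.189. Idi1, the isopentenyl diphosphate isomerase, had 0.58, 0.18 and -1.35 in KO at 3 h, against -1.22, -1.79 and -1.65 in KO at 0 h. The 21-week array again lay near the 0 h values, and the differences were 1.36 ± 0.429 in KO (adjusted p = 0.0563) and 1.11 ± 0.429 in WT (adjusted p = 0.0766). Acat2, the cytosolic thiolase at the head of the pathway, differed by 0.49 ± 0.203 in KO and -0.12 ± 0.203 in WT, and Pmvk, the second kinase, by 0.18 in KO and 0.30 in WT; none of these was called with all arrays.

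**Figure D3:**
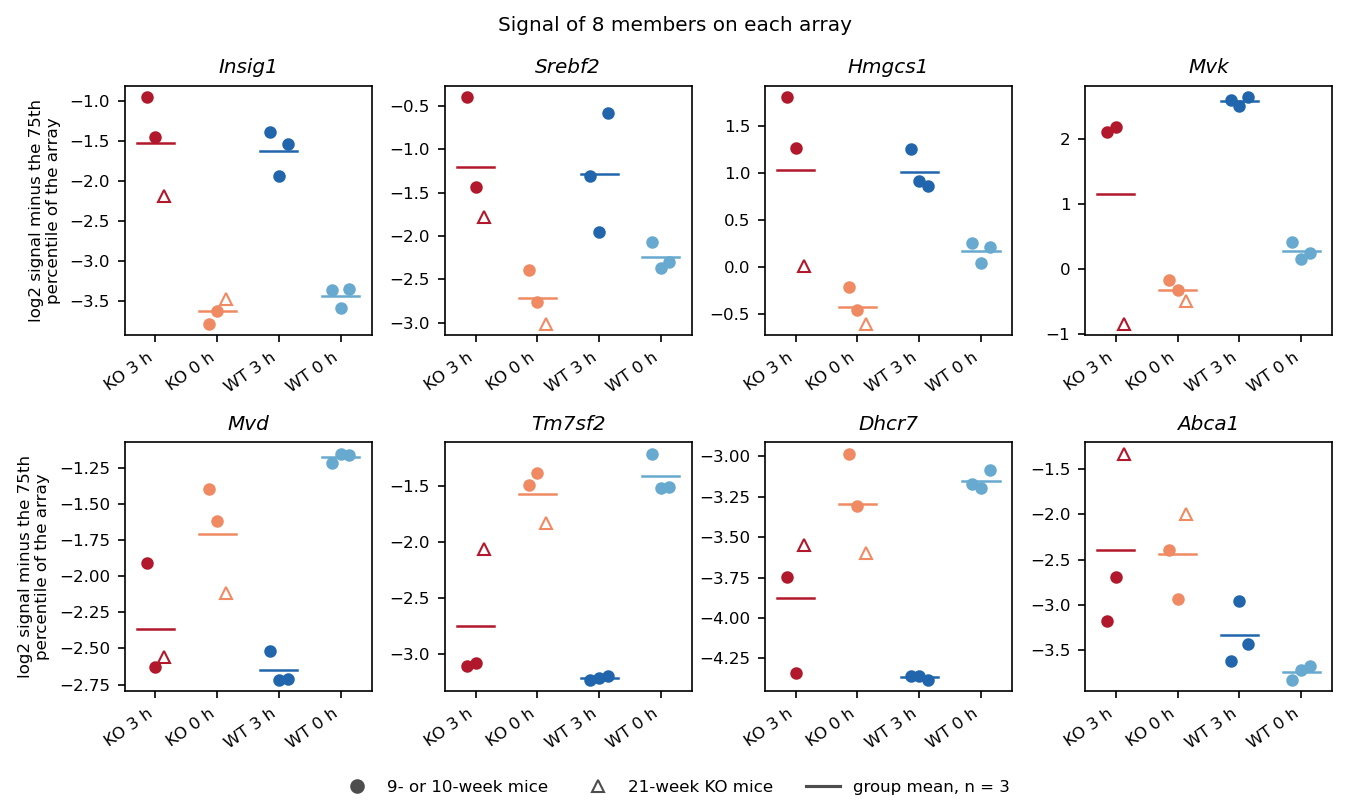
Log2 signal of 8 members on each of the 12 arrays, minus the array's 75th percentile, with group means as bars and the 21-week KO arrays as triangles. Insig1, Srebf2 and Hmgcs1 lie higher at 3 h on every array of both genotypes, Mvk does so except on the 21-week KO array, and Tm7sf2 lies lower at 3 h in both.

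Among the squalene and sterol steps, with all arrays, 2 of 11 genes rose and 1 fell in KO (7.44% and 8.87% of all probes), while in WT none rose and 4 fell (13.7% and 15.6% of all probes). When the 21-week arrays were left out, 6 rose and 3 fell in KO (20.2% and 24.2% of all probes), and 3 rose and 5 fell in WT (24.9% and 29.7%). Fdft1, squalene synthase, had -0.55, -0.97 and -0.87 in KO at 3 h, against -1.28, -1.62 and -1.95 in KO at 0 h. It rose 1.77-fold in KO (log2 0.82 ± 0.190, adjusted p = 0.0173, limma), and the WT difference was 0.16 ± 0.190. Sc4mol had 0.70, 0.30 and 0.12 in KO at 3 h, against -0.19, -0.74 and -0.78 in KO at 0 h. It rose 1.92-fold in KO (0.94 ± 0.221, adjusted p = 0.0184, limma), and the WT difference was 0.05 ± 0.221. Neither gene's KO groups overlapped. Both calls, like that of Fdps, were lost with KO replicate 1 at 3 h or KO replicate 2 at 0 h left out.

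Tm7sf2, a sterol C14 reductase, had -3.11, -3.08 and -2.07 in KO at 3 h, against -1.49, -1.38 and -1.83 in KO at 0 h. WT cells had -3.23, -3.21 and -3.20 at 3 h, against -1.21, -1.52 and -1.51 at 0 h. All arrays at 3 h lay below all arrays at 0 h of the same genotype. It fell to 0.439 of its 0 h signal in KO (log2 -1.19 ± 0.268, adjusted p = 0.0157) and to 0.286 in WT (-1.80 ± 0.268, adjusted p = 0.00123; limma). The second Tm7sf2 probe gave -1.30 in KO (adjusted p = 0.00751) and -1.55 in WT (adjusted p = 0.00176). The KO call was lost with KO replicate 1 or 2 at 3 h, or KO replicate 2 at 0 h, left out, and the WT call under no alternative. The brightest probe lies at chr19:6062882-6062941 (mm9).

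Dhcr7, the final reductase of cholesterol synthesis, had -3.75, -4.34 and -3.55 in KO at 3 h, against -2.98, -3.31 and -3.60 in KO at 0 h. Its WT levels were -4.36, -4.36 and -4.38 at 3 h, against -3.17, -3.19 and -3.09 at 0 h. The WT groups did not overlap and the gene fell to 0.431 of its 0 h signal there (log2 -1.21 ± 0.223, adjusted p = 0.00347, limma). In KO the difference was -0.58 ± 0.223 (adjusted p = 0.102), and -0.90 without the 21-week arrays (adjusted p = 0.00688). The probe lies at chr7:151033874-151033933 (mm9).

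Nsdhl, a sterol dehydrogenase, had -4.26, -4.38 and -4.16 in WT at 3 h, against -3.39, -3.56 and -3.34 in WT at 0 h, and fell (log2 -0.84 ± 0.208, adjusted p = 0.0137, limma), a call lost without WT replicate 2 at 3 h or WT replicate 3 at 0 h. In KO its arrays at 3 h, with -3.90, -4.38 and -4.06, also lay below those at 0 h, with -3.01, -3.65 and -3.66, but the difference of -0.68 ± 0.208 was not called (adjusted p = 0.0519). The second Nsdhl probe gave the opposite calls, with -1.10 in KO (adjusted p = 0.0187) and -0.55 in WT (adjusted p = 0.138). That probe lay above background on only 1 of 3 KO arrays at 3 h, so the size of its KO difference is uncertain. Lss, which closes oxidosqualene into lanosterol, had -4.62, -4.59 and -4.65 in WT at 3 h, against -3.91, -3.87 and -3.77 in WT at 0 h. It fell in WT (-0.77 ± 0.240, adjusted p = 0.0366, limma), a call lost under 10 of 23 alternatives, among them quantile normalization and leaving out any 1 of the 6 WT arrays. In KO the Lss groups overlapped and the difference was -0.18 ± 0.240.

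Macrophage and monocyte markers moved with time as well: 8 of 12 fell at 3 h in KO and 8 of 12 in WT, with medians of -2.20 in KO and -1.84 in WT (log2; 9 of 12 in each without the 21-week arrays). T cell markers had medians of -0.71 in KO, where 1 of 9 rose, and -0.53 in WT, where 1 of 9 fell; without the 21-week arrays 3 rose and 5 fell in KO, and 1 rose and 5 fell in WT. Of the 4 tested NK cell markers, 2 fell in KO and 3 in WT (3 in each without the 21-week arrays). Over all probes 7.44% rose and 8.87% fell in KO, and 13.7% rose and 15.6% fell in WT. Without the 21-week arrays 20.2% rose and 24.2% fell in KO, and 24.9% rose and 29.7% fell in WT. The part of such cells in the falls of Mvd, Lss, Tm7sf2, Nsdhl and Dhcr7 was not tested.

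Cyp51, the sterol C14 demethylase, had -1.63, -2.06 and -3.75 in KO at 3 h, against -3.31, -4.06 and -4.81 in KO at 0 h. In WT it had -2.26, -2.41 and -2.33 at 3 h, against -3.61, -3.57 and -3.48 at 0 h. The 21-week array at 3 h fell among the KO arrays at 0 h, and neither difference was called with all arrays (1.58 ± 0.505 in KO, adjusted p = 0.0584; 1.22 ± 0.505 in WT, adjusted p = 0.0951). Sc5d, the sterol C5 desaturase, had 0.16, 0.09 and -1.17 in KO at 3 h, against -1.17, -1.24 and -1.47 in KO at 0 h. Its differences were 0.99 ± 0.307 in KO (adjusted p = 0.0535) and 0.76 ± 0.307 in WT (adjusted p = 0.0876). Without the 21-week arrays Cyp51 and Sc5d were called in both genotypes, with Hsd17b7, Idi1, Hmgcs1, Mvk and Insig1. For Hsd17b7 this held only for the brightest probe. A dimmer Hsd17b7 probe was called in KO (adjusted p = 0.00166) but not in WT (0.379, adjusted p = 0.134, limma) in that fit. The dimmest was called in neither genotype (adjusted p = 0.453 in KO and 0.144 in WT). Sqle, squalene epoxidase, differed by 0.71 ± 0.278 in KO and by 0.0040 in WT, and Ebp, the sterol isomerase, by -0.12 in KO and -0.47 in WT.

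Among the 7 fatty acid synthesis genes none was called for activation in KO or WT with all arrays. Without the 21-week arrays Acly rose and Scd2 fell in KO, where 20.2% of all probes rose and 24.2% fell. In WT Fasn and Elovl6 rose and Scd2 fell in that fit (limma), where 24.9% of all probes rose and 29.7% fell. At an unadjusted p under 0.05, 1 of 7 lay above 0 in KO, where 15.1% of all probes did so and 16.8% lay below, and 1 of 7 lay below 0 in WT, where 22% of all probes did so and 19.1% lay above. Scd2, a stearoyl-CoA desaturase, had -0.48, -0.38 and 1.05 in KO at 3 h, against 0.50, 0.27 and 1.15 in KO at 0 h. The WT arrays had -0.86, -0.57 and -0.60 at 3 h, against 0.41, 0.16 and 0.39 at 0 h, with no overlap (log2 -1.0 ± 0.380, adjusted p = 0.0730). Fasn, the fatty acid synthase, differed by 0.21 ± 0.357 in KO and 0.56 ± 0.357 in WT. Acaca, which makes malonyl-CoA, differed by -0.04 in KO and -0.03 in WT. Acly, which makes cytosolic acetyl-CoA, gave probes that disagreed: the brightest differed by 0.06 ± 0.131 in WT, while a dimmer one rose by 0.77 ± 0.188 (adjusted p = 0.0129, limma).

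The 6 transport, storage and LXR genes had no call in either genotype with all arrays. Without the 21-week arrays Soat1 rose in KO, where 20.2% of all probes rose and 24.2% fell. In WT Npc1 rose and Soat1 fell in that fit (limma), where 24.9% of all probes rose and 29.7% fell. At an unadjusted p under 0.05 with all arrays, 1 of 6 lay above 0 in KO, where 15.1% of all probes did. In WT 0 of 6 differed, where 19.1% of all probes lay above 0 and 22% below. Npc1, the lysosomal cholesterol exporter, had -2.73, -2.89 and -2.10 in KO at 3 h, against -2.86, -3.54 and -4.12 in KO at 0 h. The groups overlapped, and the difference was 0.93 ± 0.309 in KO (adjusted p = 0.0658) and 0.67 ± 0.309 in WT (adjusted p = 0.133). Stard4, a cytosolic sterol carrier, differed by 0.38 in KO and 0.32 in WT on its brightest probe, but by 1.35 in KO (adjusted p = 0.0702) and 1.89 in WT (adjusted p = 0.0122, limma) on a dimmer one. Soat1, which esterifies cholesterol for storage, differed by 0.24 in KO and -0.36 in WT, and Mylip, an LXR-induced ubiquitin ligase, by 0.18 in KO and 0.21 in WT.

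The response of KO and WT was compared by the difference of the activation effects, KO minus WT. None of the 36 genes was called, and 0% of all probes rose or fell in that test with all 12 arrays and again 0% without the 21-week arrays (limma); quantile normalization called 4 probes, 0 of them members. At an unadjusted p under 0.05, 5 of the 36 lay above 0 and none below, where 1.77% of all probes lay above and 1.88% below. The 5 were Sc4mol with 0.90 ± 0.313, Mvd with 0.82 ± 0.331, Fdps with 0.69 ± 0.267, Fdft1 with 0.66 ± 0.269 and Soat1 with 0.60 ± 0.255. The median over the 36 genes was 0.26, against 0.05 over all probes. By brightest probe, 10 of 11 squalene and sterol step genes lay above 0 (11 of 11 without the 21-week arrays). So did 5 of 7 mevalonate, 5 of 5 SREBP system and 4 of 6 transport genes, but only 2 of 7 fatty acid genes. The second Nsdhl probe, dim in KO at 3 h, lay at -0.55 (-0.42 without the 21-week arrays). The second Tm7sf2 probe lay at 0.25 (-0.23 without them), and the other Hsd17b7 probes at 0.73 and -0.93. The arrays at 0 h also enter the comparison of KO with WT at 0 h, so the signs in both are not independent. The KO and WT differences correlated across the 36 genes (Pearson r = 0.845, and 0.856 without the 21-week arrays), about as across all probes (0.847, and 0.864 without them), a description over genes that share arrays and are not independent replicates. Of the 36, 31 had the same sign in both genotypes. With all arrays Insig1 and Tm7sf2 were called in both, which is 25% of the KO calls and 28.6% of the WT calls, against 86.5% and 48.1% over all probes. In the fit without 21-week arrays 13 were called in both, which is 59.1% of the KO calls and 72.2% of the WT calls, against 86.7% and 70.4% over all probes. These shared counts, of members and of all probes, disregard direction. Soat1 was among the 13, with a rise in KO and a fall in WT.

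Between the 21-week KO arrays the differences were not those between the 10-week means. Mvk was -0.35 (log2) at 3 h relative to 0 h between the 21-week arrays, against 2.39 between the 10-week means. Idi1 gave 0.30 against 1.89, Hsd17b7, a sterol ketoreductase, 0.03 against 1.19, and Hmgcs1 0.61 against 1.87. Insig1 gave 1.29 against 2.50 and Srebf2 1.23 against 1.66, while Fdft1 gave 1.09 against 0.69 and Npc1 2.02 against 0.39. Tm7sf2 gave -0.24 against -1.66. Across the 36 genes the median was 0.17 between the 21-week arrays and 0.36 between the 10-week means, and 26 genes had the same sign in both. The 2 sets of differences correlated with Pearson r = 0.404 across the 36 genes, against 0.491 across all probes, so the departure was not limited to these genes. With 1 array per time at 21 weeks there is no replicate and no test, and age cannot be told apart from the marker differences of those arrays, given above.

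**Figure D4:**
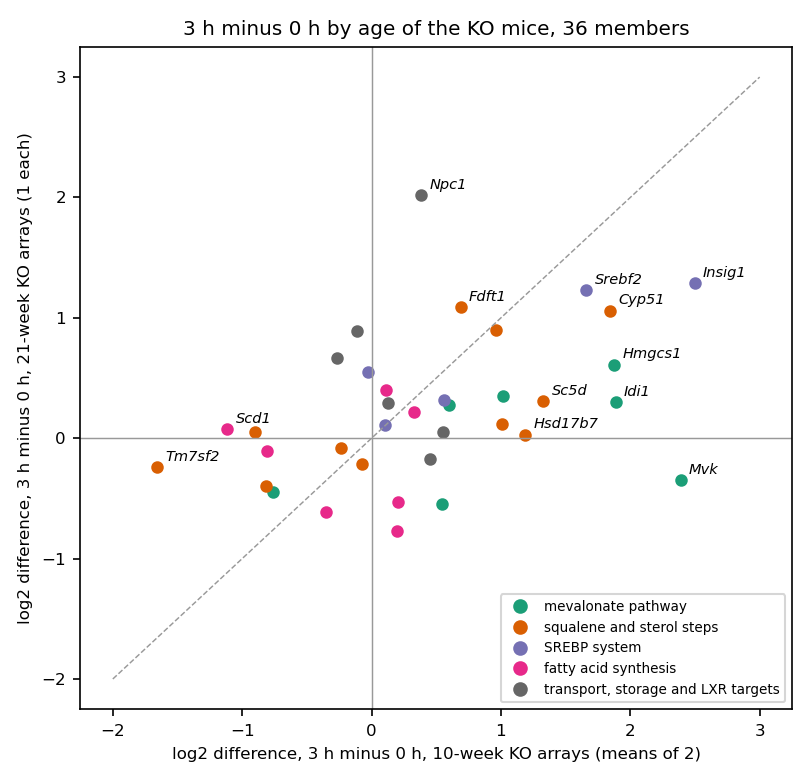
Log2 difference of 3 h minus 0 h for each of the 36 genes between the 21-week KO arrays (vertical axis, 1 array per time) and between the means of the 10-week KO arrays (horizontal axis, 2 arrays per time), coloured by role, with the line of equal differences dashed. Mvk lies at -0.35 on the vertical and 2.39 on the horizontal axis, and Npc1 at 2.02 and 0.39.

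KO was then compared with WT at each time. At 3 h none of the 36 was called, where 1.1% of all probes rose and 0.164% fell; without the 21-week arrays again none was called, where 1.13% rose and 0.465% fell (limma). At an unadjusted p under 0.05, 3 of the 36 lay above 0 and 2 below, where 7.45% of all probes lay above and 2.65% below. At 0 h none was called either, where 1.63% of all probes rose and 0.187% fell, with 2 above 0 and 3 below 0 at an unadjusted p under 0.05, where 9.81% of all probes lay above and 4.3% below. Without the 21-week arrays 1 rose and 2 fell at 0 h, where 3.87% of all probes rose and 1.22% fell. Those were Abca1, which rose, and Mvk and Ebp, which fell. With KO replicate 3 at 3 h left out, Mvk and Abca1 were called at 0 h. With all arrays, KO and WT did not overlap for 9 of the 36 at 3 h (18.5% of all probes) and 11 at 0 h (29.2%).

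At 0 h all 7 mevalonate genes and 10 of 11 squalene and sterol step genes had a lower mean in KO than in WT, with no call. The medians of these groups were -0.33 and -0.35, against -0.03 over all probes. These genes share the same 6 arrays and are not independent of each other. With the shift set over all probes, the median of all probes moved to -0.17 at 3 h and -0.21 at 0 h, so levels between genotypes carry that uncertainty. Lss, at 0.13, was the 1 gene of the 18 above 0, and it lay below 0 under that shift, quantile normalization, normexp and the authors' deposited table, so its sign depends on the scaling. Without the 21-week arrays 7 of 7 and 8 of 11 did. Mvk differed by -0.60 ± 0.642, Hmgcs1 by -0.59 ± 0.372, Sc4mol by -0.54 ± 0.221 and Mvd by -0.53 ± 0.234 at 0 h. Without the 21-week arrays the difference was -0.51 for Mvk (adjusted p = 0.0452) and -0.65 for Ebp (adjusted p = 0.0174, limma). The second Mvk probe gave -0.43 in that fit and was not called (adjusted p = 0.0866, limma). At 3 h the same groups did not share a sign: 4 of 7 mevalonate genes and 7 of 11 sterol step genes lay above 0, from Mvk with -1.44 ± 0.642 (-0.44 without the 21-week arrays) to Lss with 0.71 ± 0.240. At 3 h 6 of 7 and 10 of 11 lay above 0 without the 21-week arrays, with no call.

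**Figure D5:**
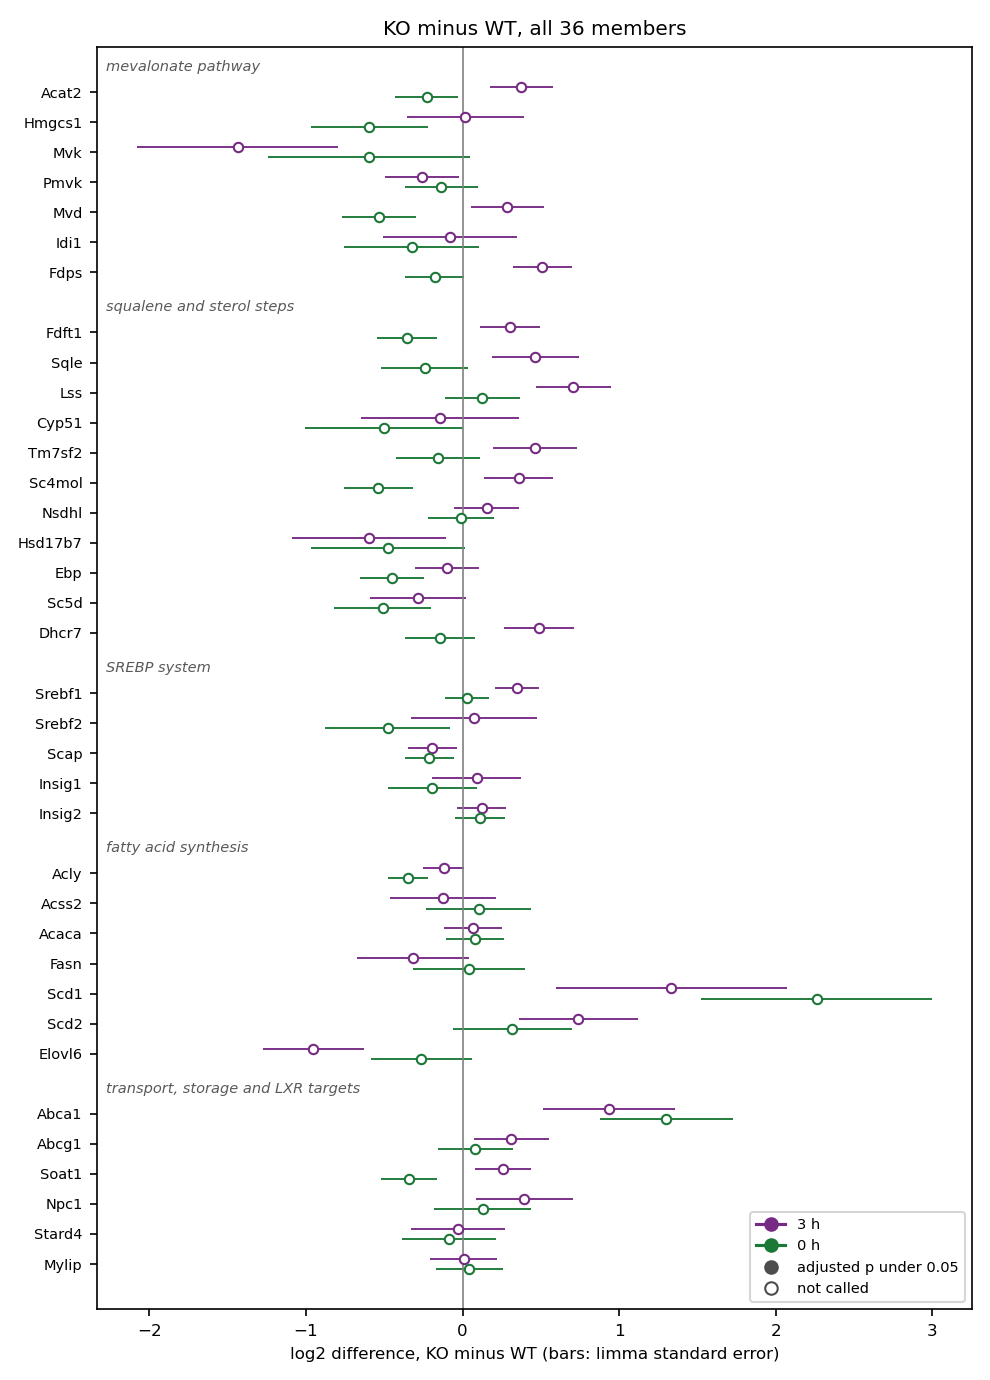
Log2 difference of KO minus WT for each of the 36 genes at 3 h (purple, upper) and 0 h (green, lower), with the limma standard error; no point is filled, since no gene was called. Scd1 lies at 1.33 at 3 h and 2.26 at 0 h, and Mvk at -1.44 and -0.60.

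At 0 h the members with the largest differences between genotypes were Scd1 and Abca1. Scd1, the main stearoyl-CoA desaturase outside the brain, had -4.86, -4.64 and -2.82 in KO at 3 h, against -6.30, -4.46 and -5.57 in WT at 3 h. At 0 h it had -2.65, -4.61 and -2.90 in KO, against -6.20, -4.63 and -6.11 in WT. The arrays within a group spread over more than 1 log2 unit, and the differences were 1.33 ± 0.738 at 3 h (adjusted p = 0.567) and 2.26 ± 0.738 at 0 h (adjusted p = 0.192, limma). Abca1, the LXR-induced cholesterol exporter, had -3.17, -2.69 and -1.33 in KO at 3 h, against -3.62, -2.95 and -3.43 in WT at 3 h. At 0 h it had -2.39, -2.93 and -2.0 in KO, against -3.82, -3.72 and -3.68 in WT, with no overlap. Its difference was 0.94 ± 0.424 at 3 h (adjusted p = 0.498) and 1.30 ± 0.424 at 0 h (adjusted p = 0.190), and 1.08 at 0 h without the 21-week arrays (adjusted p = 0.0466, limma). The other LXR target transporter, Abcg1, differed by 0.31 at 3 h and 0.08 at 0 h. Elovl6, the elongase of saturated fatty acids, differed by -0.95 ± 0.322 at 3 h (adjusted p = 0.304) and -0.26 at 0 h, and Acss2, which activates acetate, by -0.13 at 3 h and 0.10 at 0 h. For Elovl6 the 21-week array at 3 h stood at -1.34 (log2) relative to the mean of the 10-week KO arrays of that time.

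Other genes of these pathways were read from 3 lists. Of 12 SREBP and LXR regulators, 11 were tested. Nr1h3, which encodes LXR alpha, had -0.82, -0.83 and -0.21 in KO at 3 h, against -3.74, -2.96 and -3.33 in WT at 3 h. At 0 h it had -0.16, 0.09 and -0.48 in KO, against -2.51, -2.05 and -2.26 in WT. All KO arrays lay above all WT arrays, and Nr1h3 rose in KO by 2.72 ± 0.263 at 3 h (adjusted p = 0.00175) and by 2.09 ± 0.263 at 0 h (adjusted p = 0.00664, limma). No other gene of the list was called between genotypes with all arrays; without the 21-week arrays Erlin2, named after its values were seen, also rose in KO at 0 h, by 0.78 (adjusted p = 0.0127). Macrophage markers rose in KO as well, and whether they have a part in the value of Nr1h3 was not tested. Nr1h2, which encodes LXR beta, rose with activation by 0.65 ± 0.138 in KO (adjusted p = 0.0124) and by 0.70 ± 0.138 in WT (adjusted p = 0.00487). Nr1h3 fell in WT by 1.07 on the log2 scale (adjusted p = 0.0130).

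Of 17 genes of fatty acid elongation, desaturation and activation, 15 were tested. Fads1, the delta-5 desaturase, rose in KO at 0 h by 1.08 ± 0.163 (adjusted p = 0.0117, limma). With activation 1 of the 15 fell in KO (8.87% of all probes), and 3 rose and 2 fell in WT (13.7% and 15.6%). With the arrays of 21-week mice left out, 5 rose and 3 fell in KO (20.2% and 24.2% of all probes), and 8 rose and 2 fell in WT (24.9% and 29.7%). Acsl5, a fatty acyl-CoA synthetase, fell in KO by 0.89 on the log2 scale (adjusted p = 0.0147) and in WT by 0.88 (adjusted p = 0.00887). Acacb, the mitochondrial acetyl-CoA carboxylase, rose in WT by 1.37 ± 0.257 (adjusted p = 0.00378). Of 15 genes of sterol branches, uptake and oxysterols, 12 were tested, and 2 rose and 2 fell with activation in KO and 2 rose and 1 fell in WT (2 and 4 in KO, and 3 and 4 in WT, without the 21-week arrays). The shares of all probes in these fits are those given for the list before. Ch25h, which makes the oxysterol 25-hydroxycholesterol, lay above background on 1 of 3 KO and 3 of 3 WT arrays at 3 h and on 0 of 6 arrays at 0 h. It was at least 1.26-fold higher at 3 h in KO (adjusted p = 0.0194) and at least 2.42-fold higher in WT (adjusted p = 0.00240). For a bound, a dim array enters at its lowest value among probes above background, or at the gene's own value where that is higher. Scarb1, a lipoprotein receptor, fell with activation by 1.70 on the log2 scale in KO (adjusted p = 0.00174) and by 1.14 in WT (adjusted p = 0.00495), and rose in KO at 0 h by 1.32 ± 0.226 (adjusted p = 0.0193). Cyp27a1, which makes 27-hydroxycholesterol, lay above background only on the 3 KO arrays at 0 h and was at least 3.27-fold higher there than in WT at 0 h (adjusted p = 0.0237).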

How the data were processed

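Total RNA of sorted splenic Treg was hybridised to 12 single-colour Agilent arrays, 3 in each of 4 groups taken from the labels. The authors deposited each array's scanner output, in which the intensity per spot is linear, corrected for background and spatial trend within the array, and not normalized across arrays. Agilent Feature Extraction made it; the file headers give version 10.7.3.1 and the submitters' processing notes version 11. The authors also deposited a table of log2 values; the submitters' processing notes name Partek and no scaling, so it served only as an alternative. Per the labels' protocols, amplification used 20 ng of RNA for 1 sample and 40 ng for the rest.

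From these, control spots and outlier-flagged spots were left out and the log2 processed signal was averaged per probe (55681 probes; 515 that lacked a value somewhere were not tested). On average only 47.38% of probes were well above background, so the 75th percentile subtracted from an array was taken over the 19799 probes above background on all 12. The 26261 probes above background throughout 1 group or more were fitted with limma 3.58.1 (R 4.3.3, lmFit and eBayes, two-sided) on 4 group means with 8 residual degrees of freedom. Benjamini-Hochberg adjustment ran over all 26261 probes in each of 5 comparisons, and a call is an adjusted p under 0.05. No non-control spot was saturated. The number of arrays limits the precision. The fit was tested on simulated data.

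Members and gene lists were chosen with earlier results of these data known. Members called, and up to 2 uncalled members per role group with the largest difference, have values given per array or in summarised form; from each list up to 3 called genes with the largest moderated statistic are named. The result of 1 gene is not reported here. Motifs were counted in RefSeq promoter windows of GRCm38.p6; probe positions are those of the array design (mm9). Alternatives changed the normalization, background correction, filter, probes per gene, samples in the fit and the arrays from 21-week mice.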

Additional observations from a re-analysis of the deposited data

How the results depend on the processing

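Among the 15 calls of members for activation, 0 changed direction in 23 alternatives. All 15 remained called without the 21-week arrays, with age as a covariate, with probes above background on all 12 arrays and with 1 brightest probe per gene; 14 did with the shift over all probes or the mean of probes, 13 under quantile normalization, normexp or the authors' deposited table, 8 with no filter on dim probes and 7 with only the compared groups in the fit. The calls of Insig1, Mvd, Tm7sf2 and Dhcr7 in WT held under all 23. For 3 h against 0 h in KO the count of 8 moved to 22 without the 21-week arrays, 18 with age as a covariate, 2 with no filter and 0 with the KO arrays alone, and ran from 1 to 19 with 1 array left out. For WT the count of 7 moved to 18 without the 21-week arrays, 17 with age as a covariate and 18 with the WT arrays alone, and ran from 4 to 15 with 1 array left out. For KO against WT at 0 h the count of 0 moved to 3 without the 21-week arrays and 1 with age as a covariate, and ran from 0 to 2 with 1 array left out. It was 0 under each alternative for KO against WT at 3 h and for the difference of the activation effects. The count of calls without the 21-week arrays also rose over all probes; in WT the differences are the same, while in KO they changed as well as the spread. No paired analysis was possible because the labels tie no array to a mouse and replicate numbers follow only the order of the accessions.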
